A study of Mus musculus with 11 samples.

Results

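Astrocytes of the olfactory bulb (OB) were compared with astrocytes of the cortex (CX) across all genes, using the 3 samples titled OB and the 2 titled CX out of the 11 samples of the series. The samples were chosen by their titles alone, and the other regions were left out. All 5 samples came from 16-week-old Aldh1l1-eGFP mice of the C57BL/6 strain, a transgenic line in which a bacterial artificial chromosome drives green fluorescent protein from the regulatory sequence of the astrocyte gene Aldh1l1. GFP-positive cells were dissociated from each dissected region and isolated by FACS, and the labels name no treatment. The labels do not say whether samples came from separate animals, so the p-values below measure the spread between these samples. A deposited value is the read count of a gene divided by a size factor of its sample, and values are compared between samples of a gene and not between genes. Read counts per sample were between 4503269 and 9425474 in OB and between 4306813 and 5596128 in CX.

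Astrocytes clear glutamate and GABA from synapses, buffer potassium, supply neurons with cholesterol and lactate, and respond to neurotransmitters through their own receptors. Cortical astrocytes arise from the dorsal telencephalon, which is patterned by factors such as Emx2, whereas the bulb receives new interneurons throughout life from a stream of subpallial origin. The bulb also holds cells that the cortex lacks, among them ensheathing glia and the incoming axons of olfactory sensory neurons.

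Replicates of a region resembled each other more than samples of the other region did. Across genes, which are not independent replicates, log2 values had a Pearson r of 0.928 to 0.943 between OB samples, 0.936 between the CX samples and 0.858 to 0.883 between OB and CX. Of the variance in log2 values among the 5 samples, 53.3% lay between the regions. The CX libraries differed from the OB libraries in ribosomal sequence. The ribosomal RNA precursor Rn45s took 19.0% and 20.7% of reads in CX and 2.14% to 2.93% in OB. Lars2, a mitochondrial leucyl-tRNA synthetase, moved in the same direction, with values of 4139, 2278 and 3594 in OB and 56616 and 55298 in CX (log2 difference -4.11 ± 0.19 SE, adjusted p = 1.89e-08). Mir6236 had 192, 57.6 and 185 in OB and 3356 and 3507 in CX (log2 difference -4.74 ± 0.38 SE, adjusted p = 3.78e-06). The part of ribosomal sequence in the results below was not tested. It split the libraries in the same way as region did, so a difference in library preparation and a difference of region cannot be told apart. An edgeR fit with TMM factors called 1403 genes. With Rn45s left out of library sizes it also called 1403, 795 of them higher in OB. TMM factors already limit the weight of a single gene, so this fit does not address other differences between the libraries. Y-linked Ddx3y had 641, 0 and 0 in OB and 0 in both CX samples, so that 1 OB library and no CX library held reads of this male-specific gene.

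A total of 12747 genes had enough reads to be tested with limma on log2(value + 1). Differentially expressed genes (DEGs) met 3 conditions, namely an unadjusted p below 0.01, more than a 1.5-fold difference, and values above 5 in at least 2 samples of OB or of CX. By this rule 1455 genes were DEGs, which is 11.4% of those tested. Of these, 821 were higher in OB (6.44% of genes tested) and 634 were lower in OB (4.97%). The median log2 difference of all tested genes was 0.01. A Benjamini-Hochberg adjusted p under 0.05 was reached by 1364 genes, and 1245 DEGs passed both. The number of genes with an adjusted p under 0.05 depended on the CX samples, and was 525 without CX replicate 1 and 751 without CX replicate 2. On the log2(value + 1) scale, differences over 4-fold were found in 384 of the DEGs higher in OB and in 140 of those lower in OB. Values of OB and CX samples did not overlap for 1454 of the 1455 DEGs, against 38.8% of all tested genes. The DEG rule itself favours genes without overlap, so this count is no separate support for the DEGs.

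**Figure D1:**
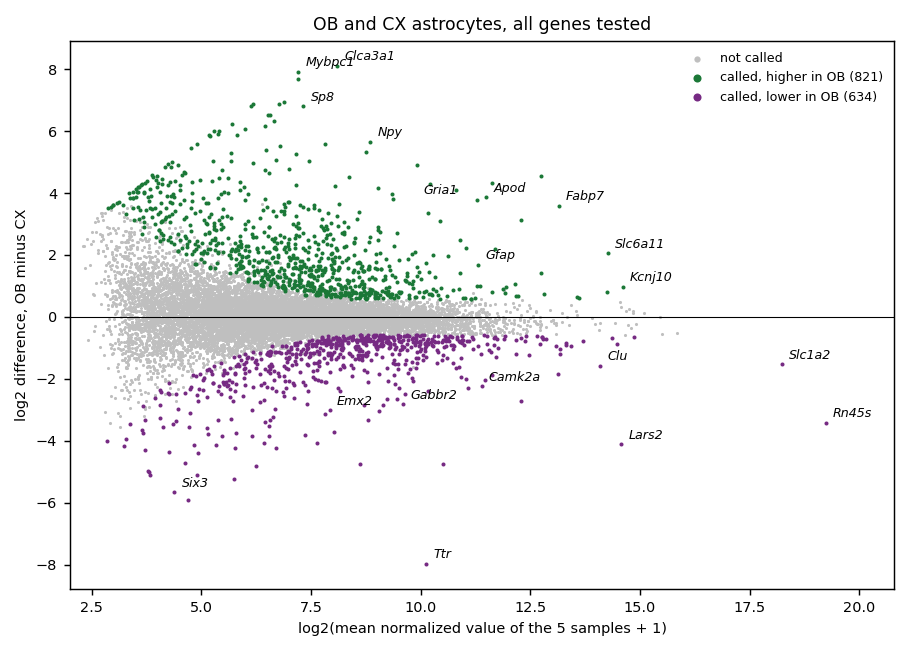
Log2 difference between OB and CX (vertical axis) against log2 of the mean normalized value of the 5 samples plus 1 (horizontal axis) for the 12747 genes tested. Green points are the 821 DEGs higher in OB, purple points the 634 DEGs lower in OB and grey points the other genes, and the difference ranges from 8.11 for Clca3a1 to -7.96 for Ttr.

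Genes were grouped into 26 lists by cell type or function. Over all genes tested, 6.44% were DEGs higher in OB and 4.97% were lower, and the list counts below are read beside these shares. Cholesterol synthesis had 15 DEGs lower in OB and no DEG higher, and olfactory ensheathing glia had 8 DEGs higher in OB and none lower. With limma, edgeR and DESeq2 alike, 0 of the 14 microglial genes tested were DEGs, and 1 had an unadjusted p under 0.05 with limma. Their summed value was 2078 to 5530.1 in OB and 2895 to 3568 in CX.

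**Figure D2:**
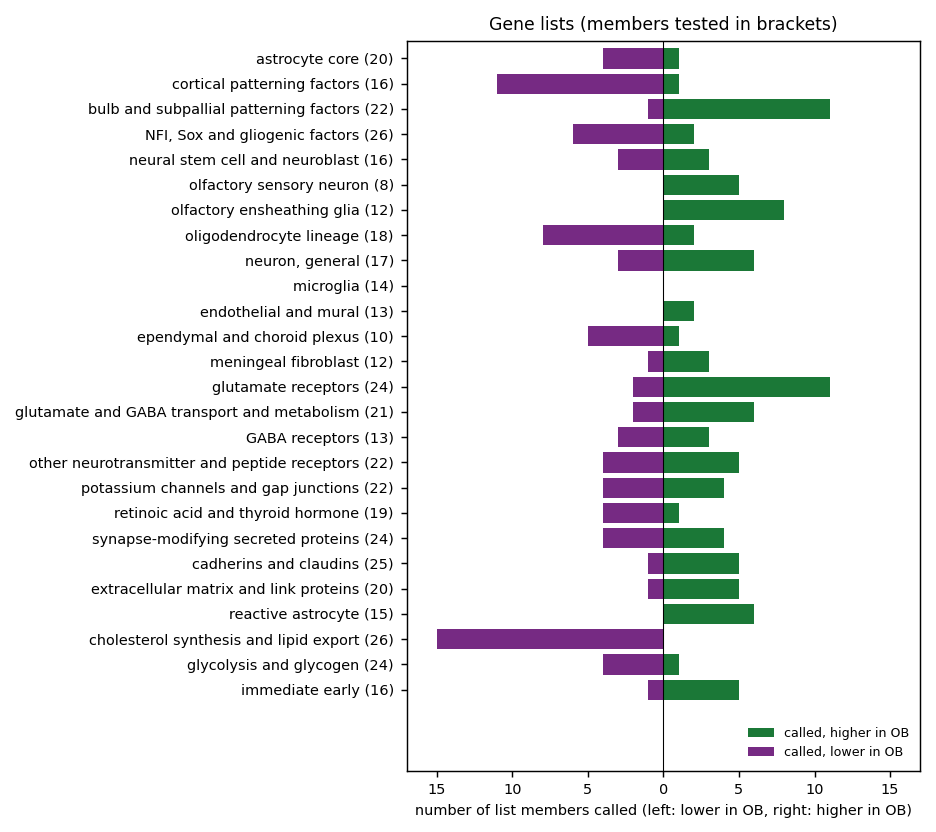
Number of DEGs in each of the 26 gene lists, with DEGs higher in OB as green bars to the right and DEGs lower in OB as purple bars to the left. The number of list members tested is in brackets. The longest bars are the 15 cholesterol genes lower in OB, the 11 cortical patterning factors lower in OB, and the 11 bulb and subpallial factors and 11 glutamate receptors higher in OB.

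General astrocyte genes were high in both regions. All 20 genes of the astrocyte core list were tested, of which 1 (5%) was a DEG higher in OB, 4 (20%) were DEGs lower in OB and 15 were not called. An unadjusted p under 0.05 with limma was reached by 12 of the 20. The median log2 difference of the list was -0.32, against 0.01 for all genes tested. Aldh1l1, the folate enzyme whose regulatory sequence drives the reporter (chromosome 6, 90486427 to 90600203 of GRCm38), had 974, 943 and 959.9 in OB and 1317 and 1043 in CX, and its difference did not pass the test (log2 difference -0.29 ± 0.14 SE, adjusted p = 0.257). The water channel Aqp4 had 12440.2, 11807 and 13521 in OB and 10888 and 10924 in CX (log2 difference 0.20 ± 0.10 SE, adjusted p = 0.261) and the glutamate transporter Slc1a3 (GLAST) had 21010.1, 25941 and 29652 in OB and 33551 and 31576 in CX (log2 difference -0.36 ± 0.13 SE, adjusted p = 0.105), and neither was called. In the OB samples Aqp4 was above and Slc1a3 below every CX sample.

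Slc1a2 (GLT-1), the main glutamate transporter of the forebrain (chromosome 2, 102658659 to 102790784), was lower in OB. Its values were 169532, 162749 and 199406 in OB and 541892 and 472464 in CX, with no overlap between regions (log2 difference -1.52 ± 0.12 SE, adjusted p = 2.98e-06). Gfap, the intermediate filament protein of astrocytes (chromosome 11, 102887336 to 102900912), was higher in OB, with 4028, 3168 and 3321 in OB and 889 and 1309 in CX (log2 difference 1.69 ± 0.16 SE, adjusted p = 1.65e-05). Sox9, a transcription factor of gliogenesis, had 1199, 1515 and 1861 in OB and 2632 and 2695 in CX (log2 difference -0.83 ± 0.16 SE, adjusted p = 0.00424). Ndrg2, an astrocyte gene of the N-myc downstream regulated family, had 17537, 16187 and 17824 in OB and 34684 and 28408 in CX (log2 difference -0.87 ± 0.11 SE, adjusted p = 0.000165), and Fgfr3, a fibroblast growth factor receptor, was also a DEG lower in OB (log2 difference -0.79 ± 0.14 SE, adjusted p = 0.0025). The count of core genes lower in OB was 8 without OB replicate 3 and 8 without CX replicate 2. When all 11 samples of the series entered the fit it was 1, and the call of Slc1a2 was lost.

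Transcription factors with a known regional role in the forebrain differed between the OB and CX samples. Some of them, such as Tbr1, Sp8 and Eomes, are factors of neurons. The neuronal list also differed, with 6 DEGs higher in OB and 3 lower. The part of neuronal RNA in the results for these factors was not tested. Of 16 cortical patterning factors tested, 11 (68.75%) were DEGs lower in OB and 1 (6.25%), the orphan nuclear receptor Nr2f2, was higher. Without CX replicate 1, 5 were lower. Emx2, a homeobox factor that patterns the dorsal telencephalon (chromosome 19, 59458372 to 59465357), had 41.3, 67.1 and 85.1 in OB and 492 and 524 in CX (log2 difference -3.02 ± 0.31 SE, adjusted p = 2.69e-05). Both CX samples were far above all OB samples. Tbr1, a T-box factor of glutamatergic cortical neurons, had 13.03, 3.95 and 3.77 in OB and 94.2 and 103 in CX (log2 difference -3.84 ± 0.67 SE, adjusted p = 0.00203). Nr2f1 (COUP-TF1), which sets area identity in the cortex, had 58.6, 50.5 and 99.1 in OB and 322 and 261 in CX (log2 difference -2.11 ± 0.32 SE, adjusted p = 0.000786), and Nr2f2 (COUP-TF2) moved the other way with 724, 368 and 538 in OB and 172 and 176 in CX (log2 difference 1.58 ± 0.25 SE, adjusted p = 0.000902). The remaining members lower in OB included Lhx2, Otx1, Nr2e1, Fezf2, Id4, Pou3f2 and Pou3f3, with log2 differences between -1.65 for Fezf2 and -0.66 for Id4.

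Of 22 bulb and subpallial factors tested, 11 (50%) were DEGs higher in OB and 1 (4.55%) was lower. Without OB replicate 2, 7 were higher. Sp8, a zinc finger factor of bulb interneurons (chromosome 12, 118846329 to 118852576), had 242, 278 and 271 in OB and 0 and 4.60 in CX, and its pooled ratio of OB to CX was 129 (95% exact counting interval 43.9 to 625) with adjusted p = 1.14e-05. Only 3 reads of Sp8 were counted in the CX samples. The homeobox factor Pbx3 had 336, 388 and 337 in OB and 40.2 and 58.3 in CX (log2 difference 2.84 ± 0.26 SE, adjusted p = 9.19e-06). Eomes (Tbr2), a T-box factor of mitral and tufted cells and of glutamatergic precursors, had 16.3, 33.9 and 19.4 in OB and 0 in both CX samples. Taking a floor of 3 reads per library in CX, Eomes was at least 5.55-fold higher in OB (adjusted p = 0.00725). Other members higher in OB included Sp9, Dlx1, Dlx5, Etv1, Zic1 and Zic4. Whether astrocytes or neurons in the samples held the RNA of these factors was not tested.

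Six3, a homeobox factor of the anterior forebrain and striatum (chromosome 17, 85613608 to 85629302), was the listed factor that was lower in OB. It was at 0 in the 3 OB samples and 42.7 and 56.7 in CX, at least 20.6-fold higher in CX (adjusted p = 0.0034). Its antisense neighbour Six3os1 was at 0 in the 3 OB samples and 22.6 and 41.4 in CX (adjusted p = 0.0132), a call that was lost without CX replicate 2. Reads of Six3 and Six3os1 cannot be told apart where they overlap, since the counting is not stated to use strand.

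**Figure D3:**
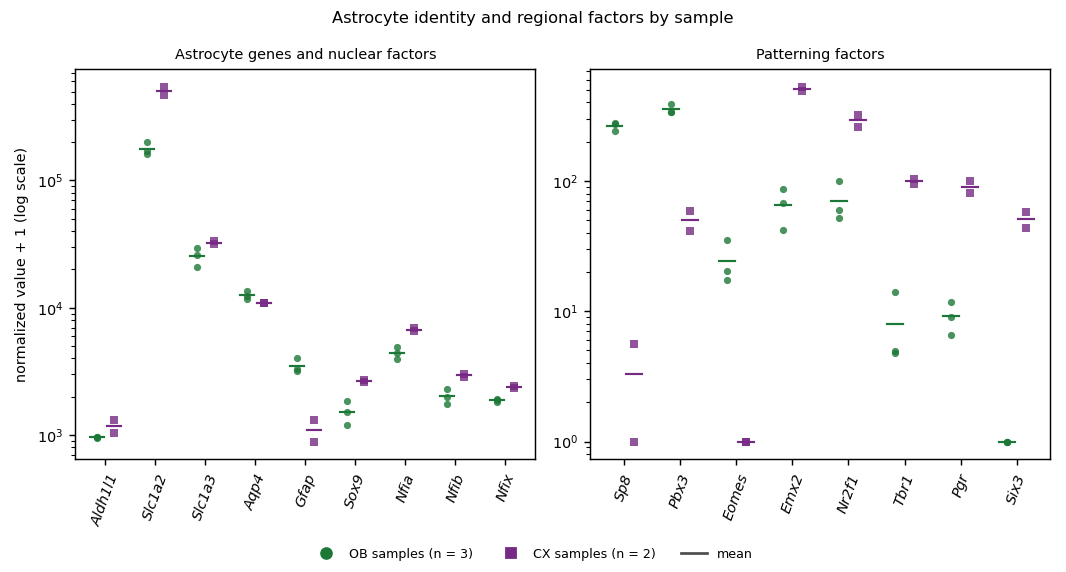
Normalized value plus 1 on a log scale (vertical axis) for astrocyte genes and nuclear factors (left) and regional patterning factors (right). Green circles are the 3 OB samples, purple squares the 2 CX samples and horizontal lines the means. Slc1a2 is higher and Gfap lower in both CX samples than in every OB sample, and Six3 is at 0 in all OB samples while Eomes is at 0 in both CX samples.

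The nuclear factor I (NFI) family drives astrocyte formation, and its members were expressed in both regions. Nfia had 3966, 4446 and 4921 in OB and 6553 and 6952 in CX and was a DEG lower in OB (log2 difference -0.61 ± 0.12 SE, adjusted p = 0.00359). Without OB replicate 1 or CX replicate 2 it was not called. Nfib had 1764, 2004 and 2322 in OB and 2881 and 3039 in CX, but its fold change was under 1.5 (log2 difference -0.55 ± 0.13 SE, adjusted p = 0.0155) and it was not called, though without OB replicate 3 and under some other settings it was, and Nfix had 1817, 1891 and 1938 in OB and 2363 and 2447 in CX and was not called (log2 difference -0.35 ± 0.11 SE, adjusted p = 0.0678). All 3 genes were lower in every OB sample than in the CX samples. Within the list of 26 NFI, Sox and gliogenic factors tested, 6 (23.1%) were DEGs lower in OB and 2 (7.69%) were higher. The number lower was 12 without OB replicate 3 and 3 without CX replicate 2. Pgr, the progesterone receptor (chromosome 9, 8899833 to 8968611), had 10.9, 5.53 and 8.08 in OB and 80.4 and 98.1 in CX (log2 difference -3.34 ± 0.59 SE, adjusted p = 0.00216). Gli3, a transcription factor of hedgehog signalling, had 460.4, 533 and 815 in OB and 1501 and 1427 in CX (log2 difference -1.32 ± 0.20 SE, adjusted p = 0.000798). Hey2, a Notch target factor, was higher in OB with 556, 362 and 410.5 in OB and 66.6 and 65.9 in CX (log2 difference 2.70 ± 0.24 SE, adjusted p = 8.59e-06), and Id3, an inhibitor of basic helix-loop-helix factors, had 470.2, 514 and 429 in OB and 280.2 and 265 in CX (log2 difference 0.78 ± 0.18 SE, adjusted p = 0.0109). Tpbg, a membrane glycoprotein that inhibits Wnt signalling, had 35.8, 72.6 and 38.8 in OB and 177 and 84.3 in CX. It met the unadjusted rule but not an adjusted p of 0.05 (log2 difference -1.37 ± 0.44 SE, adjusted p = 0.0648), and the call was lost without OB replicate 1, OB replicate 3 or CX replicate 1, with all 11 samples in the fit and without a mean-variance trend. Tm7sf2, a sterol reductase, had 28.2, 19.7 and 39.3 in OB and 59.05 and 70.5 in CX and was not called (log2 difference -1.18 ± 0.47 SE, adjusted p = 0.154).

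Among glutamate receptors, DEGs higher in OB outnumbered those lower. Of 24 tested, 11 were DEGs higher in OB (45.8%, against 6.44% of all genes tested) and 2 were lower, with a median log2 difference of 1.19. The AMPA receptor subunit Gria1 (chromosome 11, 57011387 to 57330244) had 4010.3, 3964 and 3943 in OB and 274 and 302 in CX (log2 difference 3.78 ± 0.12 SE, adjusted p = 1.25e-09). Its OB values lay within a narrow range, and both CX values lay far below them. The AMPA subunit Gria4 had 759, 622 and 629 in OB and 211 and 58.3 in CX (log2 difference 2.58 ± 0.38 SE, adjusted p = 0.000543) and Gria2 had 2309, 2943 and 2412 in OB and 877 and 1032 in CX (log2 difference 1.42 ± 0.14 SE, adjusted p = 2.08e-05). Grik3, a kainate receptor subunit, had 522, 409 and 395 in OB and 27.6 and 42.9 in CX (log2 difference 3.63 ± 0.27 SE, adjusted p = 1.63e-06). The NMDA receptor subunit Grin3a had 1674, 1799 and 1835 in OB and 518 and 379 in CX (log2 difference 2.0 ± 0.15 SE, adjusted p = 2.30e-06). Further DEGs higher in OB included Gria3, Grin1, Grin2b, Grm5 and Grm8. Grm5, a metabotropic receptor that couples to calcium release, had 307, 507 and 288 in OB and 139 and 167 in CX (log2 difference 1.21 ± 0.26 SE, adjusted p = 0.00703), and was not called without CX replicate 1.

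Grm3, the main metabotropic glutamate receptor of adult astrocytes, was lower in OB, with 1225, 1565 and 1821 in OB and 5847 and 5288 in CX (log2 difference -1.87 ± 0.15 SE, adjusted p = 3.81e-06). Markers of GABAergic neurons, which also express many glutamate receptors, were higher in OB. The glutamate decarboxylases Gad1 and Gad2 had log2 differences of 3.03 ± 0.33 and 1.75 ± 0.22 SE. The general neuronal list summed to 3769 to 6444 in OB and 7469 to 9295 in CX. Within these sums Camk2a alone was 912 to 1348 in OB and 4584 and 5567 in CX. The median log2 difference of the neuronal list was 0.30, with 6 DEGs higher in OB and 3 lower. The part of neuronal RNA in the receptor results was not tested, and fewer cells of a type and less RNA per cell cannot be told apart in bulk samples.

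The GABA transporter Slc6a11 and the glycine transporter Slc6a9 were higher in OB, while the glutamate transporter GLT-1 (Slc1a2) was lower. The list of transport and metabolism genes held 6 DEGs higher in OB (28.6%) and 2 lower (9.52%) among 21 tested. Slc6a11 (GAT-3), the astrocytic GABA transporter, had 26319, 26056 and 32499 in OB and 7206 and 6412 in CX (log2 difference 2.05 ± 0.12 SE, adjusted p = 1.64e-07). Slc6a9 (GlyT1), a glial glycine transporter (chromosome 4, 117834506 to 117875198), had 1888, 1509 and 2002 in OB and 158 and 189 in CX (log2 difference 3.36 ± 0.17 SE, adjusted p = 4.00e-08). For Slc1a5, a neutral amino acid exchanger, with 30.4, 59.2 and 28.01 in OB and 1.26 and 0 in CX, the pooled ratio was 55.5 (95% exact counting interval 9.82 to 2206), from a single read in CX (adjusted p = 0.00236). Maob, a mitochondrial monoamine oxidase of astrocytes, was lower in OB with 357, 373 and 487 in OB and 1116 and 1013 in CX (log2 difference -1.40 ± 0.17 SE, adjusted p = 0.000137). Glutamine synthetase (Glul), which converts glutamate to glutamine, had 44189, 42567 and 48329.8 in OB and 45360.5 and 44921 in CX and was not called (log2 difference -0.01 ± 0.10 SE, adjusted p = 0.983).

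Differences in GABA receptor genes ran in both directions. The metabotropic GABA-B subunits were lower in OB. Gabbr2 (chromosome 4, 46662305 to 46991873) had 238, 223 and 221 in OB and 1538 and 1671 in CX (log2 difference -2.81 ± 0.16 SE, adjusted p = 1.48e-07) and Gabbr1 had 949, 1410.0 and 1488 in OB and 4909 and 5348 in CX (log2 difference -2.02 ± 0.17 SE, adjusted p = 4.93e-06). Among the ionotropic GABA-A subunits, Gabrg1 was lower in OB (log2 difference -1.15 ± 0.19 SE, adjusted p = 0.00132). Gabra5 and Gabra3 were higher. Gabra5 had 90.1, 181 and 53.3 in OB and 13.8 and 16.9 in CX (log2 difference 2.57 ± 0.52 SE, adjusted p = 0.00517) and Gabra3 had 84.7, 89.2 and 72.2 in OB and 17.6 and 29.1 in CX (log2 difference 1.81 ± 0.42 SE, adjusted p = 0.0134). In all, 3 of 13 tested GABA receptor genes (23.1%) were DEGs higher in OB, 3 (23.1%) were lower and 7 were not called.

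**Figure D4:**
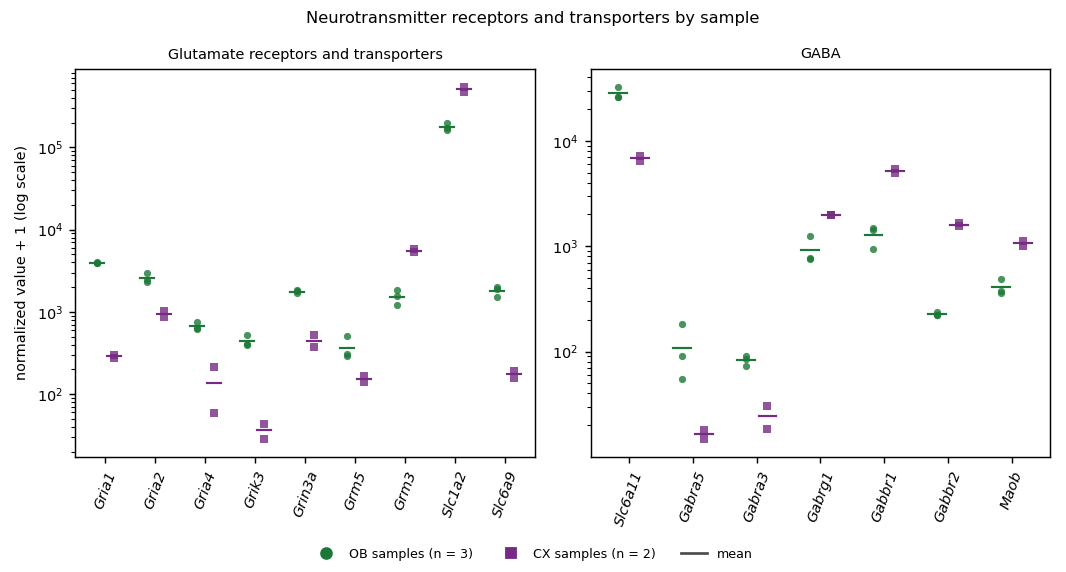
Normalized value plus 1 on a log scale (vertical axis) for glutamate receptors and transporters (left) and genes of GABA transport and reception (right), with the monoamine oxidase Maob at the far right. Green circles are the 3 OB samples, purple squares the 2 CX samples and horizontal lines the means. Gria1 lies between 3943 and 4010 in OB and between 274 and 302 in CX, and Gabbr2 shows the reverse order.

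Other receptors and channels moved in both directions. Of 22 neurotransmitter and peptide receptors tested, 5 (22.7%) were DEGs higher in OB and 4 (18.2%) were lower. The number lower was 2 without OB replicate 1 and 1 without CX replicate 1. Gpr50, an orphan receptor related to melatonin receptors, had 153, 137 and 147 in OB and 3.77 and 1.53 in CX (log2 difference 5.40 ± 0.51 SE, adjusted p = 1.35e-05), and the purinergic receptor P2ry1 had 147, 60.00 and 85.6 in OB and 10.1 and 10.7 in CX (log2 difference 3.02 ± 0.50 SE, adjusted p = 0.00131). The serotonin receptor Htr2c was lower in OB with 3.26, 13.4 and 3.23 in OB and 43.97 and 64.4 in CX (log2 difference -3.09 ± 0.77 SE, adjusted p = 0.02), and the beta-adrenergic receptor Adrb1 had 2.17, 7.89 and 8.62 in OB and 27.6 and 44.5 in CX (log2 difference -2.48 ± 0.79 SE, adjusted p = 0.066). Both of these calls were lost without either CX replicate, and that of Adrb1 also without OB replicate 1.

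Kcnj10 (Kir4.1), the inward rectifier that buffers extracellular potassium, was higher in OB with 32855, 26678 and 34048 in OB and 15428 and 16109.8 in CX (log2 difference 0.98 ± 0.12 SE, adjusted p = 0.000103). Kcnd3, an A-type channel, had 1016, 1006 and 1195 in OB and 168 and 158 in CX (log2 difference 2.71 ± 0.16 SE, adjusted p = 2.49e-07). Kcnq3, an M-current channel, had 7.60, 29.2 and 10.2 in OB and 211 and 199 in CX (log2 difference -3.85 ± 0.55 SE, adjusted p = 0.000446), and Kcnk10, a background leak channel, had 5.43, 3.16 and 3.23 in OB and 21.4 and 38.3 in CX (log2 difference -2.62 ± 0.82 SE, adjusted p = 0.0604). The call of Kcnk10 was lost without OB replicate 2, OB replicate 3 or either CX replicate. The list of 22 potassium channels and gap junction genes held 4 DEGs in each direction, and the number lower in OB was 2 without OB replicate 2 and 2 without CX replicate 1.

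Cholesterol synthesis was the list with the most DEGs in a single direction. All 26 genes were tested, 15 were DEGs lower in OB (57.7%, against 4.97% of all genes tested), none was higher, and the median log2 difference was -0.94. The DEGs included Hmgcs1 at the start of the mevalonate pathway, Mvd and Idi1 in its middle, Fdft1 and Sqle at the branch to sterols, and Lss, Cyp51, Msmo1, Nsdhl, Hsd17b7 and Sc5d in the later steps. Hmgcs1, which forms the precursor of mevalonate, had 2144, 1972 and 2210.1 in OB and 4181 and 5067 in CX (log2 difference -1.13 ± 0.12 SE, adjusted p = 4.40e-05). Fdft1, squalene synthase, had 625, 642 and 677 in OB and 1751 and 1625 in CX (log2 difference -1.38 ± 0.13 SE, adjusted p = 1.70e-05). Msmo1, a sterol methyl oxidase (chromosome 8, 64718139 to 64733792), had 528, 447 and 497 in OB and 1323 and 1240.4 in CX (log2 difference -1.39 ± 0.15 SE, adjusted p = 3.86e-05). In none of these 3 genes did the regions overlap.

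A regulator of sterol levels was also lower in OB. Insig1, which retains the sterol sensor in the endoplasmic reticulum, had 557, 563 and 533 in OB and 1131 and 998 in CX (log2 difference -0.95 ± 0.14 SE, adjusted p = 0.000728). Srebf2, the transcription factor that activates the pathway, was not called, with 685, 685 and 747 in OB and 863 and 794 in CX (log2 difference -0.23 ± 0.14 SE, adjusted p = 0.382). Of the lipid export genes, clusterin (Clu) was lower in OB with 7484, 10870.0 and 11075 in OB and 29720.2 and 28069 in CX (log2 difference -1.58 ± 0.15 SE, adjusted p = 1.35e-05). Apoe had 27018, 26494 and 29075 in OB and 24897 and 22901 in CX (log2 difference 0.20 ± 0.10 SE, adjusted p = 0.25) and Abca1 had 1591, 1935 and 2257 in OB and 1864 and 1496 in CX (log2 difference 0.19 ± 0.16 SE, adjusted p = 0.532), and neither was called. Oligodendrocytes also make cholesterol. The summed value of 18 oligodendrocyte genes was 11562 to 18039 in OB and 21475 to 22286 in CX, and their part in the sterol result was not tested.

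**Figure D5:**
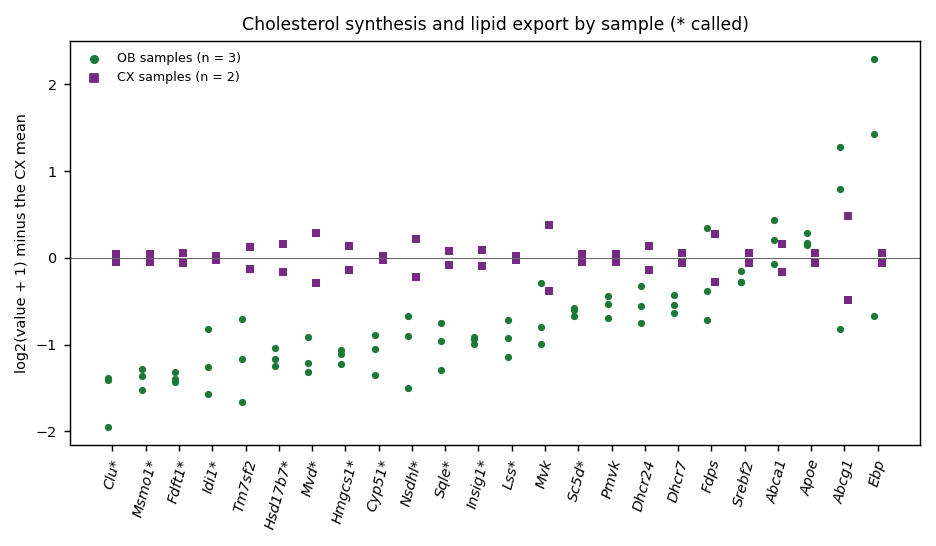
Log2(value + 1) of each sample minus the mean of the CX samples (vertical axis) for 24 of the 26 genes of cholesterol synthesis and lipid export, ordered by their OB mean. Green circles are the 3 OB samples, purple squares the 2 CX samples, and an asterisk marks the 13 DEGs among them, in all of which the OB samples lie below the CX samples.

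Promoters of the sterol genes were examined because the genes moved together. The windows were the 250 bases before the start of each gene in RefSeq (GRCm38.p6), and both motifs were chosen after the values were seen. The box bound by NF-Y, CCAAT, and the core of the sterol regulatory element, CACNCCAC, were searched on both strands. Windows were held for 18 of the 26 genes and for 10 of the 15 DEGs. The NF-Y box was present in all 10 of these DEGs and in 16 of the 18 genes (88.9%), against 40.5% of the 9693 tested genes with a window and 33.8% of all 32851 windows. It was present in 36.0% of windows of DEGs higher in OB and 39.2% of DEGs lower in OB. The sterol element core was found in 2 of the 18 genes, Hmgcs1 and Insig1, against 6.69% of tested genes and 5.29% of all windows. A match describes letters in the window and not a bound site. The windows of 5 DEGs are shown 5′ to 3′ with matches to either motif in capitals, ATTGG being the NF-Y box and GTGGCGTG the sterol element core on the opposite strand. They are Hmgcs1 (chr13:119690101-119690350, plus strand), Idi1 (chr13:8885356-8885605, plus strand), Cyp51 (chr5:4104698-4104947, minus strand), Msmo1 (chr8:64733579-64733828, minus strand) and Insig1 (chr5:28071162-28071411, plus strand).
Hmgcs1: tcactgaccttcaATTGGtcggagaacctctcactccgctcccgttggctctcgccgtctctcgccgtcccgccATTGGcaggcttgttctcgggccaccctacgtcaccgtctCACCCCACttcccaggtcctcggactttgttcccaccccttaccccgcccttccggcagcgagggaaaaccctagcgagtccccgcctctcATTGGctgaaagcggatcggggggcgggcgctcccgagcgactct
Idi1: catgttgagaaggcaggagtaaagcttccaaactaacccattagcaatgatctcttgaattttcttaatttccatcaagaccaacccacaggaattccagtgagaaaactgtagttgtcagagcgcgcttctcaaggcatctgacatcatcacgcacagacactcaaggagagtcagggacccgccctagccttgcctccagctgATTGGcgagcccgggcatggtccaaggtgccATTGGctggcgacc
Cyp51: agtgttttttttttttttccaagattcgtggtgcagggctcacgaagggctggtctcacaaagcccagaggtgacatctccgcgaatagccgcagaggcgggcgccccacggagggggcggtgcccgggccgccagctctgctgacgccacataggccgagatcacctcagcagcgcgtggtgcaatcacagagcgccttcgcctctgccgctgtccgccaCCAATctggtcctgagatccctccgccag
Msmo1: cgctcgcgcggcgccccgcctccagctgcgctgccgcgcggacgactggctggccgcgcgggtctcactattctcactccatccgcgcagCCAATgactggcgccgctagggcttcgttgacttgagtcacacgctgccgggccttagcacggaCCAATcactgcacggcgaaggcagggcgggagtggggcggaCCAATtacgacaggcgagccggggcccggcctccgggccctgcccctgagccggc
Insig1: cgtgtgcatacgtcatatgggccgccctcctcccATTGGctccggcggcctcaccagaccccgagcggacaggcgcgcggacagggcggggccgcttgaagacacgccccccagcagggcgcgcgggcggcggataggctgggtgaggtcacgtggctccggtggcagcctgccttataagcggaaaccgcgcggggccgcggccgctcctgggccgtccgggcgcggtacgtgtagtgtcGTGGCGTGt

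In these windows Hmgcs1 and Msmo1 held 3 NF-Y boxes each, Idi1 held 2, and Cyp51 and Insig1 held 1 each.

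Among 24 genes of glycolysis and glycogen metabolism tested, 4 were DEGs lower in OB and 1 was higher, and without OB replicate 2 or CX replicate 1 the number lower was 2. Ppp1r3c, a targeting subunit for glycogen synthesis, had 1137, 1202 and 1261 in OB and 3205 and 2823 in CX (log2 difference -1.33 ± 0.12 SE, adjusted p = 1.23e-05) and Pdk4, a kinase that inhibits pyruvate dehydrogenase, had 267, 254 and 349 in OB and 671 and 607 in CX (log2 difference -1.15 ± 0.19 SE, adjusted p = 0.00132). Pygm, glycogen phosphorylase, was higher in OB with 709, 778 and 805 in OB and 596 and 342 in CX (log2 difference 0.76 ± 0.21 SE, adjusted p = 0.0328), a call lost without CX replicate 2.

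Thyroid hormone and retinoid genes included 4 DEGs lower (21.1%) and 1 higher (5.26%) in OB among 19 tested. Without CX replicate 2, 2 were lower. Slco1c1, a thyroxine transporter, had 334, 400.3 and 163 in OB and 1346 and 1189.8 in CX (log2 difference -2.17 ± 0.29 SE, adjusted p = 0.000259), and Dio2, the deiodinase that activates thyroid hormone, had 5501, 5071 and 6516 in OB and 9898 and 8632 in CX (log2 difference -0.71 ± 0.12 SE, adjusted p = 0.00199). Dhrs3, a retinal reductase, had 139, 82.1 and 113 in OB and 246 and 293 in CX (log2 difference -1.29 ± 0.28 SE, adjusted p = 0.0076) and was not called without CX replicate 2. Stra6, a receptor for retinol uptake, was higher in OB with 97.7, 66.3 and 76.5 in OB and 15.1 and 13.8 in CX (log2 difference 2.38 ± 0.44 SE, adjusted p = 0.00316).

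Secreted and adhesion proteins differed by gene within a family. Among the thrombospondins, which promote synapse formation, Thbs2 (chromosome 17, 14665500 to 14694235) was higher in OB with 372, 328 and 399 in OB and 2.51 and 15.3 in CX (log2 difference 5.59 ± 0.52 SE, adjusted p = 1.14e-05). Thbs4 was lower in OB with 0, 2.37 and 1.08 in OB and 41.5 and 99.7 in CX (log2 difference -5.10 ± 0.96 SE, adjusted p = 0.00324), and it lost its call without CX replicate 2. Gpc6, a glypican that recruits AMPA receptors to synapses, had 493, 294 and 479 in OB and 1494 and 1419.8 in CX (log2 difference -1.82 ± 0.21 SE, adjusted p = 6.97e-05), and the axon guidance ligand Sema3a had 94.5, 97.9 and 74.3 in OB and 33.9 and 30.7 in CX (log2 difference 1.42 ± 0.37 SE, adjusted p = 0.026), not called without OB replicate 1 or CX replicate 2. The list of 24 synapse-modifying proteins held 4 DEGs (16.7%) in each direction.

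Of 25 cadherins and claudins tested, 5 (20%) were DEGs higher in OB and 1 (4%) was lower, against 6.44% and 4.97% of all genes tested. Cldn19, a tight junction claudin, had 216, 134 and 187 in OB and 1.26 and 0 in CX, and the pooled ratio was 256 (95% exact counting interval 45.9 to 10141), from a single read in CX (adjusted p = 5.30e-06). Cdh6, a classical cadherin, had 64.1, 36.3 and 80.3 in OB and 3.77 and 13.8 in CX (log2 difference 2.79 ± 0.64 SE, adjusted p = 0.0118) and was not called without CX replicate 1. Cdh20 had 256, 408 and 270.4 in OB and 516 and 511 in CX (log2 difference -0.75 ± 0.21 SE, adjusted p = 0.0399), with its call lost without OB replicate 1, OB replicate 3 or either CX replicate. The extracellular matrix list held 5 DEGs higher in OB (25%) and 1 lower (5%) among 20. Ltbp2, a latent TGF-beta binding protein, had 109.7, 30.00 and 61.9 in OB and 0 in both CX samples, at least 16.1-fold higher in OB (adjusted p = 0.000329). Col6a1, a collagen VI chain, had 35.8, 48.9 and 22.1 in OB and 0 and 3.07 in CX, with a pooled ratio of 24.4 (95% exact counting interval 6.61 to 203) (adjusted p = 0.00699). Hapln1, a link protein of perineuronal nets, had 660.2, 902 and 991 in OB and 1681 and 1418 in CX (log2 difference -0.88 ± 0.17 SE, adjusted p = 0.00461), not called without CX replicate 1.

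Genes of reactive astrocytes were higher in OB where they differed. Of 15 tested, 6 (40%) were DEGs higher in OB and none was lower, and Gfap and Vim are also on other lists. The protease inhibitor Serpina3n had 371, 559 and 336 in OB and 31.4 and 56.7 in CX (log2 difference 3.25 ± 0.31 SE, adjusted p = 1.35e-05), complement C4b had 1075, 633 and 609 in OB and 142 and 218 in CX (log2 difference 2.08 ± 0.26 SE, adjusted p = 0.000137), and the sphingosine phosphate receptor S1pr3 had 105, 107 and 75.95 in OB and 27.6 and 12.3 in CX (log2 difference 2.30 ± 0.45 SE, adjusted p = 0.00452). Vimentin (Vim), an intermediate filament protein, had 1333, 1058 and 1123 in OB and 276 and 366 in CX (log2 difference 1.87 ± 0.17 SE, adjusted p = 1.04e-05). Of the 16 immediate early genes, 5 (31.25%) were DEGs higher in OB and 1 (6.25%) was lower. The number higher was 3 in each fit without OB replicate 1, OB replicate 2, CX replicate 1 or CX replicate 2, and 0 with all 11 samples in the fit. Fos had 811, 861 and 449.8 in OB and 172 and 228 in CX (log2 difference 1.77 ± 0.26 SE, adjusted p = 0.000501), Egr2 had 48.9, 42.6 and 29.1 in OB and 3.77 and 4.60 in CX (log2 difference 2.96 ± 0.64 SE, adjusted p = 0.00863) and Ier2 had 61.9, 49.7 and 14.5 in OB and 5.03 and 7.67 in CX (log2 difference 2.35 ± 0.73 SE, adjusted p = 0.058). The call of Ier2 was lost without OB replicate 1, OB replicate 2 or either CX replicate. Arc, a regulator of AMPA receptor traffic in neurons, had 52.1, 67.9 and 62.5 in OB and 162 and 126 in CX (log2 difference -1.23 ± 0.32 SE, adjusted p = 0.0266), lost without CX replicate 1.

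Markers of cells other than astrocytes were present and differed between the regions. Of 12 genes of olfactory ensheathing glia tested, 8 (66.7%) were DEGs higher in OB. The list summed to 51536 to 61586 in OB and 31294 to 33273 in CX. Most of each sum lay in members whose values are not given in this paragraph, so the sums do not measure the amount of ensheathing glia. Fabp7, a brain fatty acid binding protein that astrocytes also express, had 16510.1, 12292 and 14279 in OB and 1084 and 1282 in CX (log2 difference 3.60 ± 0.13 SE, adjusted p = 2.97e-09). Npy, a neuropeptide of ensheathing glia and interneurons (chromosome 6, 49822710 to 49829507), had 936, 607 and 719.6 in OB and 20.1 and 9.20 in CX (log2 difference 5.66 ± 0.32 SE, adjusted p = 1.52e-07). Apod, apolipoprotein D, had 5432, 4035 and 4289 in OB and 235 and 411 in CX (log2 difference 3.87 ± 0.20 SE, adjusted p = 7.65e-08), and Frzb, a secreted Wnt inhibitor, had 767, 642 and 712 in OB and 13.8 and 19.9 in CX (log2 difference 5.32 ± 0.25 SE, adjusted p = 2.87e-08). Mybpc1, a myosin binding protein (chromosome 10, 88518279 to 88605152), had 306, 234 and 197 in OB and 0 in both CX samples, at least 58.7-fold higher in OB (adjusted p = 7.30e-07). Sox10, a factor of ensheathing glia and oligodendrocytes, had 168, 206 and 213 in OB and 54.02 and 61.3 in CX (log2 difference 1.74 ± 0.27 SE, adjusted p = 0.000925).

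Of 8 olfactory sensory neuron genes tested, 5 (62.5%) were DEGs higher in OB, and 6 other listed genes had too few reads to be tested. The tested members Gfy, Adcy3 and Gnal were not called. Gfy had 33.7, 11.1 and 3.23 in OB and 0 in both CX samples (adjusted p = 0.0858). Adcy3 and Gnal pointed lower in OB, with log2 differences of -0.45 ± 0.39 and -0.58 ± 0.37 SE (adjusted p = 0.556 and 0.411). Omp, the olfactory marker protein (chromosome 7, 98143359 to 98145502), had 239, 133 and 98.6 in OB and 0 and 1.53 in CX, with a pooled ratio of 204 (95% exact counting interval 36.6 to 8090) from a single read in CX (adjusted p = 1.96e-05). Cdhr1, a cadherin of the bulb's mitral and tufted cells and of photoreceptors, had 141, 471 and 125 in OB and 0 in both CX samples, at least 58.7-fold higher in OB (adjusted p = 6.72e-06). S100a5, a calcium-binding protein of sensory neurons, had 147, 66.3 and 42.02 in OB and 0 in both CX samples, at least 20.3-fold higher in OB (adjusted p = 0.000142). The median log2 difference of the tested members was 4.82, or 3.79 with genes at 0 in CX set to their lower bound. A role of ensheathing glia or sensory axons in the OB differences was not tested.

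The 17 neuronal genes tested held 6 DEGs higher in OB (35.3%) and 3 lower (17.6%). Those higher were of inhibitory, dopaminergic and interneuron types, namely Gad1, Gad2, Slc32a1, Th, Calb2 and Reln. Th, tyrosine hydroxylase, had 26.1, 66.3 and 13.5 in OB and 0 in both CX samples, at least 8.43-fold higher in OB (adjusted p = 0.00467), and Calb2, calretinin, had 55.4, 61.6 and 76.5 in OB and 8.79 and 4.60 in CX (log2 difference 3.13 ± 0.55 SE, adjusted p = 0.00199). Camk2a, the calcium/calmodulin kinase of excitatory forebrain neurons, was lower in OB with 991, 1348 and 912 in OB and 4584 and 5567 in CX (log2 difference -2.24 ± 0.16 SE, adjusted p = 1.39e-06). The neurofilament gene Nefl had 36.9, 31.6 and 32.3 in OB and 104 and 219 in CX (log2 difference -2.14 ± 0.41 SE, adjusted p = 0.00366), and without CX replicate 2 only 1 of the neuronal genes was lower and Nefl was not called. The pan-neuronal genes Rbfox3, with 70.6, 103 and 45.2 in OB and 66.6 and 98.1 in CX, and Snap25, with 1377, 1277 and 856 in OB and 1515 and 1757 in CX, were not called. Of 16 neural stem cell and neuroblast genes, 3 (18.75%) were DEGs higher in OB and 3 (18.75%) lower. Doublecortin (Dcx), a microtubule protein of migrating neuroblasts, had 415, 363 and 268 in OB and 41.5 and 47.5 in CX (log2 difference 2.92 ± 0.27 SE, adjusted p = 1.04e-05), and Dlx6os1 had 99.9, 148 and 122 in OB and 26.4 and 23.00 in CX (log2 difference 2.26 ± 0.37 SE, adjusted p = 0.00115).

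Among 18 oligodendrocyte genes tested, 8 (44.4%) were DEGs lower in OB and 2 (11.1%) were higher. Without CX replicate 1 the number lower was 3, and without CX replicate 2 it was 1. Myelin basic protein (Mbp) had 8301, 6602 and 3846 in OB and 15028 and 12396 in CX (log2 difference -1.20 ± 0.23 SE, adjusted p = 0.00404) and Mog, a myelin surface glycoprotein, had 29.3, 11.8 and 32.3 in OB and 80.4 and 81.3 in CX (log2 difference -1.80 ± 0.52 SE, adjusted p = 0.0431). Mag, the myelin-associated glycoprotein, had 36.9, 18.2 and 14.5 in OB and 77.9 and 76.7 in CX (log2 difference -1.80 ± 0.52 SE, adjusted p = 0.0403). The calls of Mog and Mag were lost without either CX replicate, that of Mbp without CX replicate 1, and that of Mag also without OB replicate 3. Olig1, a factor of the lineage, was higher in OB with 1047, 915 and 1049 in OB and 575 and 647 in CX (log2 difference 0.71 ± 0.14 SE, adjusted p = 0.0054).

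Several choroid plexus genes were lower in OB. Of 10 ependymal and choroid plexus genes tested, 5 were DEGs lower in OB and 1 was higher, and without CX replicate 1 the number lower was 3. Transthyretin (Ttr), the carrier of thyroxine and retinol made by the choroid plexus, had 6.52, 16.6 and 5.39 in OB and 4204 and 1323 in CX (log2 difference -7.96 ± 0.51 SE, adjusted p = 4.93e-07). CX replicate 1 had the highest value of Ttr, and also of Kl, the klotho protein, with 4.34, 1.58 and 11.9 in OB and 264 and 91.99 in CX (log2 difference -4.80 ± 0.76 SE, adjusted p = 0.000995). The prolactin receptor Prlr had 0, 19.7 and 0 in OB and 189.7 and 55.2 in CX (log2 difference -5.24 ± 1.21 SE, adjusted p = 0.0132). The call of Prlr was lost without CX replicate 1, with DESeq2 and without a mean-variance trend. Slc4a5, a bicarbonate transporter of choroid plexus epithelium, was at 0 in the 3 OB samples and 23.9 and 41.4 in CX, at least 13.5-fold higher in CX (adjusted p = 0.0122), and its call was lost without CX replicate 2. Aqp1, a water channel of choroid plexus and ensheathing glia, was higher in OB with 162, 135 and 209 in OB and 2.51 and 6.13 in CX (log2 difference 5.06 ± 0.49 SE, adjusted p = 1.52e-05). The part of choroid plexus RNA in the CX samples was not tested.

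Vascular and meningeal genes were mostly not called. Of 13 endothelial and mural genes tested, 2 (15.4%) were DEGs higher in OB, against 6.44% of all genes tested. They were Vtn with 627, 390.0 and 301 in OB and 87.9 and 225 in CX (log2 difference 1.57 ± 0.36 SE, adjusted p = 0.013) and Myl9 with 96.6, 82.9 and 51.7 in OB and 13.8 and 27.6 in CX (log2 difference 1.88 ± 0.48 SE, adjusted p = 0.023). Of 12 meningeal fibroblast genes, 3 (25%) were DEGs higher and 1 (8.33%) was lower, against 6.44% and 4.97% of all genes tested. Decorin (Dcn) had 125, 157 and 299 in OB and 2.51 and 53.7 in CX (log2 difference 3.71 ± 0.83 SE, adjusted p = 0.0103), osteoglycin (Ogn) had 91.2, 181 and 63.6 in OB and 26.4 and 32.2 in CX (log2 difference 1.77 ± 0.45 SE, adjusted p = 0.0228) and Igf2 had 229, 251 and 199.8 in OB and 381 and 354 in CX (log2 difference -0.70 ± 0.20 SE, adjusted p = 0.0388). The calls of Dcn and Vtn were lost with DESeq2 and without a mean-variance trend, and that of Igf2 without the trend and with all 11 samples in the fit. Without CX replicate 1 the calls of Vtn, Myl9, Ogn and Igf2 were lost. Those of Ogn and Igf2 were also lost without CX replicate 2, that of Myl9 without OB replicate 1, that of Ogn without OB replicate 2 and that of Igf2 without OB replicate 3.

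Several of the largest differences fell outside the lists. Clca3a1, a chloride channel accessory protein (chromosome 3, 144729677 to 144760977), had 619, 385 and 357 in OB and 0 and 1.53 in CX, with a pooled ratio of 616 (95% exact counting interval 110 to 24342) (adjusted p = 3.15e-07). The homeobox factor Alx4 had 194, 189 and 203 in OB and 0 and 1.53 in CX, with a pooled ratio of 285 (95% exact counting interval 50.9 to 11259) (adjusted p = 3.78e-06). Slc43a3, a nucleobase transporter, had 144, 96.3 and 116 in OB and 0 in both CX samples, at least 28.4-fold higher in OB (adjusted p = 1.18e-05). Lgr5, a receptor for R-spondins that amplifies Wnt signalling, had 103, 158 and 86.7 in OB and 0 in both CX samples, at least 27.7-fold higher in OB (adjusted p = 1.54e-05). Sphk1, a sphingosine kinase, had 122, 231 and 145 in OB and 0 and 3.07 in CX with a pooled ratio of 120 (95% exact counting interval 33.2 to 997) (adjusted p = 2.96e-05), and Sgcd, delta-sarcoglycan, had 204, 82.9 and 145 in OB and 2.51 and 0 in CX with 101 (95% exact counting interval 27.7 to 833) (adjusted p = 4.96e-05).

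On the side of the CX, Car8, a carbonic anhydrase-related protein that binds the inositol trisphosphate receptor, had 34.7, 22.1 and 47.9 in OB and 949 and 894 in CX (log2 difference -4.75 ± 0.32 SE, adjusted p = 7.71e-07). Mettl11b, an N-terminal methyltransferase, was at 0 in the 3 OB samples and 81.7 and 42.9 in CX, at least 25.8-fold higher in CX (adjusted p = 0.0022). Prr32 was at 0 in the 3 OB samples and 32.7 and 33.7 in CX, at least 13.8-fold higher in CX (adjusted p = 0.0101), a call lost without either CX replicate. Finally, Cpe, the carboxypeptidase E that processes neuropeptides, had 21889.7, 24449 and 26689 in OB and 38503 and 37177 in CX (log2 difference -0.64 ± 0.11 SE, adjusted p = 0.00144), and it was not called without OB replicate 1.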

How the data were processed

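RNA of FACS-isolated Aldh1l1-eGFP astrocytes was made into rRNA-depleted Trio libraries (NuGEN) by the authors, who used STAR 2.5.0a with the mm10 genome, UCSC transcript counts and DESeq2 1.20.0 normalization. The deposited unit is a normalized signal, a read count divided by the sample's size factor, and reads were recovered because every non-zero value (100%) was a whole number of steps, each the value of 1 read. The value of 1 read was 0.539 to 1.09 in OB and 1.26 to 1.53 in CX.

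Groups follow the sample titles. Genes kept by filterByExpr of edgeR 4.0.16 on recovered reads were tested two-sided in R 4.3.3 by limma 3.58.1 with a trend of variance on mean, using log2(value + 1), with Benjamini-Hochberg adjustment. A pseudocount of 1 understates differences of low genes. The plan named this test for normalized values and an edgeR test for counts. The limma test applied because the deposited values were normalized. Exact permutation tests were not used, as 3 against 2 samples allow only 10 assignments. Folds against a region without reads are lower bounds against 3 reads per library, averaged over its libraries, and intervals and floors cover counting error only. With 1 to 3 reads in a region, pooled ratios carry an exact conditional binomial interval.

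The comparison, lists and tests were chosen with earlier results of these data known. Genes named are the 12 largest differences in each direction among DEGs with an adjusted p under 0.05, no overlap and a mean of at least 20 in the higher region (leaving out predicted genes, RIKEN clones, Y-linked genes and Xist), up to 2 DEGs per list and direction with the largest difference, the 6 DEGs of highest mean, and 14 genes fixed by name. Other members were added for their role in a list after their values were seen. Alternatives were edgeR, DESeq2 1.42.0, other pseudocounts, filters, scalings and call rules, a replicate block, all 11 samples, and fits without each sample. The scripts were also tested on simulated counts, whose means and spread were taken from these OB and CX samples. Coordinates come from GENCODE M21 (GRCm38) and promoter windows from RefSeq. Of 24421 entries, 27 had names changed to dates and are not named here. Some genes that met these rules, 2 of them DEGs of the cholesterol list, are not reported or drawn here.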

Additional observations from a re-analysis of the deposited data

How the results depend on the processing

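The count of 1455 DEGs and the excess of DEGs higher in OB held under most alternatives. edgeR called 1403 with TMM and 1403 with RLE factors and DESeq2 called 1472. The count fell to 814 with a fold change over 2.5, when 68.6% of DEGs were higher in OB (56.4% as reported) and 118 list members were called (181 as reported). Without a mean-variance trend, 63.5% were higher in OB and 460 genes had an adjusted p under 0.05 (1364 as reported). That number was 692 with all 11 samples in the fit and 705 with all 11 samples and a replicate block. Between regions lay 43.7% of variance with no filter on low values (53.3% as reported). Over fits that left out each sample in turn, DEGs numbered 975 to 1344, the share higher in OB was 53.1% to 64.4%, genes with an adjusted p under 0.05 numbered 525 to 1222, and the variance between regions was 54.8% to 60.3%. Where a CX sample was left out, the other was assumed to vary like the OB samples, with 2 residual degrees of freedom.

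The labels do not say whether equal replicate numbers mark a pair of samples. Deviations from the region means correlated at -0.06 between OB replicate 1 and CX replicate 1 and at 0.05 between those numbered 2. These values are not independent, since the 2 CX samples deviate from their mean by opposite amounts. Ddx3y was found in OB replicate 1 and not in CX replicate 1. It was at 0 in both samples numbered 2, so it does not settle whether these form a pair. The fit with a replicate block called 1565 genes, and its calls included Nfib but not Tpbg, Kcnk10, Mag or Igf2. Among single named genes no direction reversed. With each sample left out, 54 calls were lost and 1 was gained, and under the other alternatives 87 were lost and 2 gained. With all 11 samples in the fit, with or without a replicate block, the genes not called included Slc1a2, Kcnj10, Ndrg2, Nr2e1, Nfia, Cpe, Kcna1 and Hapln1. Sensitivity was limited by depth for genes near 3 reads, a value of 1.62 to 3.26 in OB and 3.77 to 4.60 in CX.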

Other observations

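Families defined by gene symbol, chosen after their values were seen, added further differences. Of 29 tested genes of Wnt ligands, receptors and secreted inhibitors, 6 were DEGs higher in OB and 4 were lower. Sfrp1, a secreted Wnt inhibitor, had values of 208, 229 and 242 in OB and 1591 and 1268 in CX (log2 difference -2.65 ± 0.17 SE, adjusted p = 4.93e-07). Dkk3, of the dickkopf family, had 858, 739 and 961 in OB and 4166 and 4138 in CX (log2 difference -2.29 ± 0.14 SE, adjusted p = 2.11e-07), and the R-spondin receptor Lgr4 had 409, 555 and 591 in OB and 1533 and 1667 in CX (log2 difference -1.64 ± 0.17 SE, adjusted p = 3.16e-05). These 3 genes were lower in OB, whereas the related Frzb and Lgr5 were higher. Wnt7a, a Wnt ligand of astrocytes, was higher in OB with 392, 469 and 484 in OB and 264 and 146 in CX (log2 difference 1.18 ± 0.24 SE, adjusted p = 0.00582).

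Guidance receptors and collagens also divided the regions. Of 16 tested Eph receptors and ephrins, 4 were DEGs higher in OB and 1, Ephb1, was lower, with 27.1, 39.5 and 72.7 in OB and 666 and 492 in CX (log2 difference -3.71 ± 0.37 SE, adjusted p = 2.25e-05). The ligand Efna5 was higher in OB with 631, 349 and 605 in OB and 124 and 75.1 in CX (log2 difference 2.39 ± 0.29 SE, adjusted p = 0.000111). The slit receptor Robo2 was higher in OB with 1392, 1663 and 1559.9 in OB and 419.6 and 491 in CX (log2 difference 1.76 ± 0.14 SE, adjusted p = 4.11e-06), and Robo1 was lower with 435, 342 and 418 in OB and 599 and 627 in CX (log2 difference -0.63 ± 0.17 SE, adjusted p = 0.0324), a call lost without OB replicate 2 or either CX replicate. The netrin receptor Dcc was lower with 28.2, 67.1 and 33.4 in OB and 269 and 178 in CX (log2 difference -2.42 ± 0.41 SE, adjusted p = 0.00153). Of 27 collagens tested, 9 were DEGs higher in OB and 1 was lower. Col11a1 had 267, 182 and 230.0 in OB and 3.77 and 27.6 in CX (log2 difference 4.27 ± 0.59 SE, adjusted p = 0.000312) and Col23a1 had 399.6, 268 and 343 in OB and 27.6 and 76.7 in CX (log2 difference 2.82 ± 0.37 SE, adjusted p = 0.000205). Of 10 tested genes of striatal neurons and their patterning, 5 were DEGs lower in OB and none was higher. Ppp1r1b, the phosphoprotein DARPP-32, had 5.43, 16.6 and 11.3 in OB and 175 and 143 in CX (log2 difference -3.83 ± 0.55 SE, adjusted p = 0.000475) and Rasd2 had 7.60, 14.2 and 8.62 in OB and 77.9 and 143 in CX (log2 difference -3.30 ± 0.57 SE, adjusted p = 0.00175). These counts are read beside the 6.44% of all tested genes that were DEGs higher in OB and the 4.97% that were lower.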
